A study of Mus musculus with 10 samples.

Results

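The genes described are 10 neuropeptide precursors of the mouse hippocampus, 10 of the 24391 gene names counted: Penk, Pdyn, Tac1, Tac2, Adcyap1, Crh, Cort, Nts, Nmb and Cartpt. They were chosen by gene name, as precursors other than the 4 peptides that define the large interneuron classes (Sst, Npy, Vip and Cck), and the rule uses no measured value. RNA sequencing was done on whole hippocampus of both sides from 10 male mice (strain spelled C56BL/6J in the study's methods) aged 10 to 14 weeks, collected on day 4, with 1 library per mouse. In the SAH mice (n = 4; SAH 1 to SAH 4) a filament pierced the circle of Willis on one side, which lets arterial blood into the space around the brain (subarachnoid hemorrhage). In the Sham mice (n = 3; Sham 5 to Sham 7) the filament was passed but nothing was pierced, and the Naive mice (n = 3; Naive 8 to Naive 10) were not operated on. Surgery was done under isoflurane anesthesia, no drug treatment is listed by the labels, and no genetic change is named for any group. Only SAH mice with a large drop of cerebral blood flow at perforation had been kept by the authors. The main comparison was SAH against the 6 control mice (Sham and Naive together), as the study made it, and the pairwise comparisons separate surgery from hemorrhage.

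Neuropeptides are cut from larger precursor proteins inside secretory vesicles and are released by strong firing of neurons, after which they act on G protein-coupled receptors at some distance from the synapse. Their RNA is restricted to subsets of neurons, and the genes of several of them are classic targets of factors that bind cyclic AMP response elements and AP-1 sites in the promoter. In the hippocampus, enkephalin and dynorphin are carried by the mossy fibres of dentate granule cells and by some inhibitory neurons, while corticotropin-releasing hormone, cortistatin and the tachykinins are peptides of inhibitory neurons.

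Of the 10 precursors, Penk rose after SAH, by 0.33 on the log2 scale (25.6% in linear terms), and the other 9 did not pass the test. The call was lost in 9 of 21 alternatives, among them without SAH 4 and without each of the Naive mice, while the direction held in all 21. Penk was called in SAH against control and in SAH against Naive, and 0 precursors were called in SAH against Sham or in Sham against Naive. The share of all genes called in SAH against control was 4.68% by edgeR and 6.42% by DESeq2, which also called Penk alone. Tac1, Adcyap1, Cort and Cartpt had their lowest values in SAH 3 and SAH 4, the SAH mice with the most choroid plexus RNA. Pdyn and Nmb were instead higher in SAH 3 and SAH 4 than in the other SAH mice. The share of all genes lowest or higher in these mice was not computed, so neither pattern sets the precursors apart from other genes. In bulk tissue, fewer cells of a type and less RNA per cell cannot be told apart, and this holds for every value given here.

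**Figure D1:**
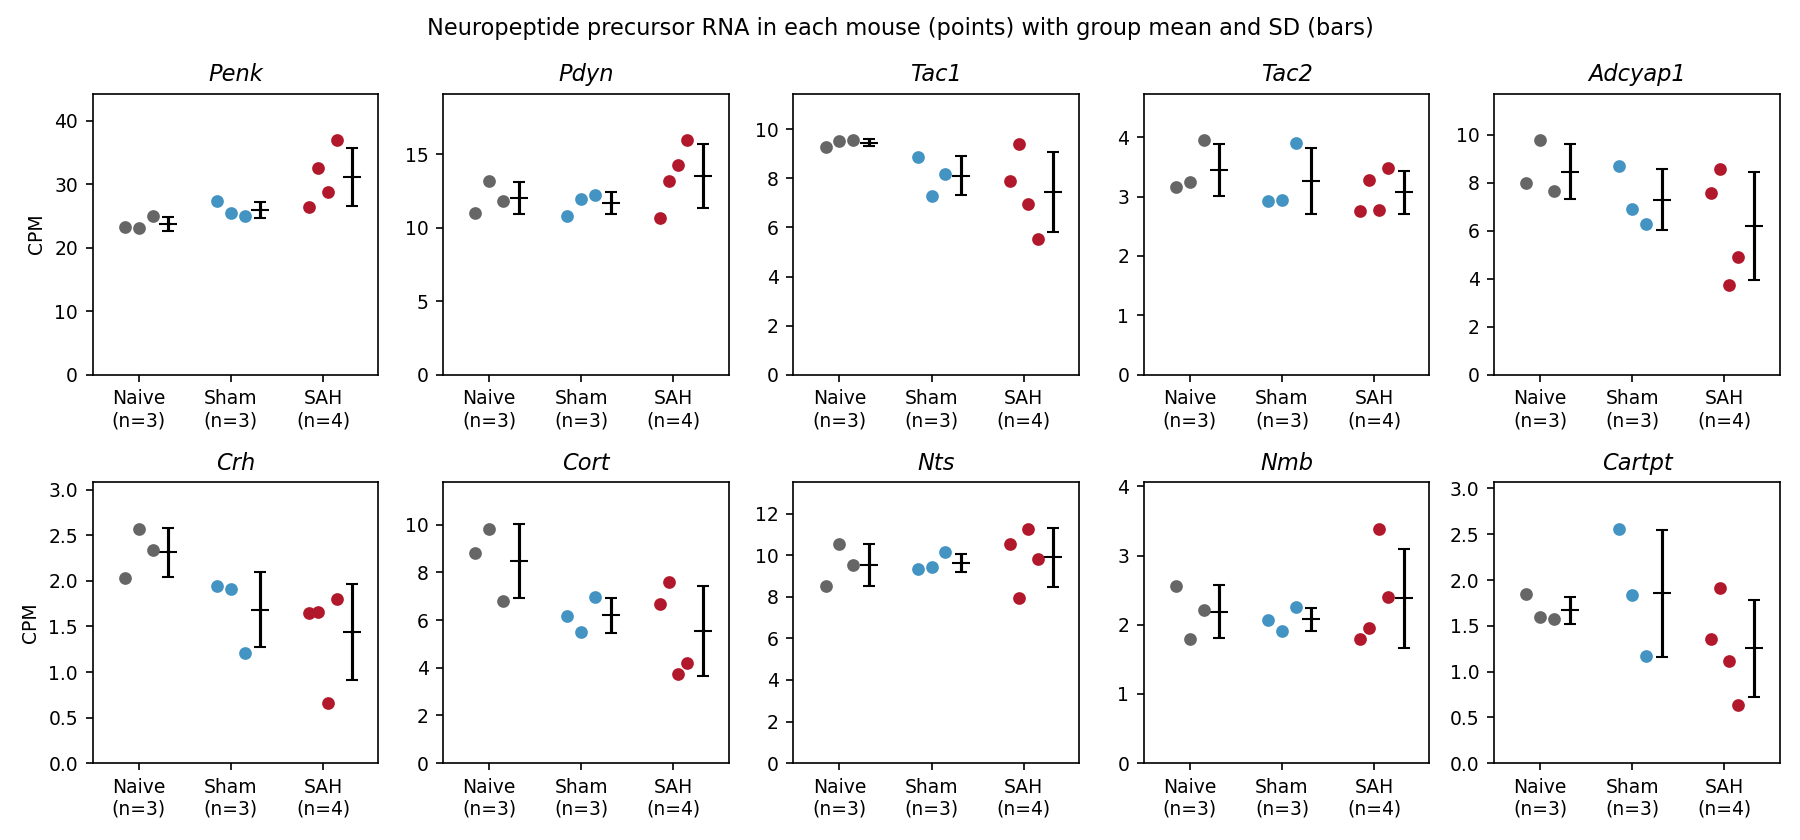
CPM (counts scaled to library size, y axis from 0) of each precursor in every mouse, with Naive mice in grey, Sham mice in blue and SAH mice in red; bars show the group mean and SD. Penk lies at 26.4 to 36.9 CPM in SAH and 23.1 to 27.3 CPM in control, and the 4 SAH points of Adcyap1 and Cort fall into a high and a low pair.

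Promoter sequences are shown for 5 precursors because they carry the letters of activity-driven elements. A link between these letters and the measured values was not tested. Each is the 250 bases before an annotated transcript start, 5′ to 3′ on the strand of the gene, from the RefSeq promoter table of GRCm38.p6. Of the 10 precursors, 8 had an entry, in 10 windows, Pdyn and Adcyap1 having 2 each, and every window matched the mm9 genome of the count tables exactly once. Penk and Crh had none. Capitals mark the cyclic AMP response element (CRE, TGACGTCA), its core site (TGACG, or CGTCA on the other strand) and the AP-1 site (TGACTCA or TGAGTCA). In mm9 the windows are chr13:100670639-100670888 (Cartpt, minus strand), chr17:93598258-93598507 (Adcyap1, plus), chr6:7504811-7505060 (Tac1, plus), chr4:148500873-148501122 (Cort, minus) and chr10:101953053-101953302 (Nts, minus).
Cartpt: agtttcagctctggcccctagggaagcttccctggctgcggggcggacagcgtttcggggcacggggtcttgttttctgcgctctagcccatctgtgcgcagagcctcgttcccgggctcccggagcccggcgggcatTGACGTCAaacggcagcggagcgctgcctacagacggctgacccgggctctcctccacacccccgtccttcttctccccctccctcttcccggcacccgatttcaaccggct
Adcyap1: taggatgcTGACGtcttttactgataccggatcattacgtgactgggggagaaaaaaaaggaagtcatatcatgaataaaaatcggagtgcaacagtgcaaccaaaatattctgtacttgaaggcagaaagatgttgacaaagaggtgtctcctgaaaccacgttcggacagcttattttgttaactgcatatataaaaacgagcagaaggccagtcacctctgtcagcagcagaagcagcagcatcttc
Tac1: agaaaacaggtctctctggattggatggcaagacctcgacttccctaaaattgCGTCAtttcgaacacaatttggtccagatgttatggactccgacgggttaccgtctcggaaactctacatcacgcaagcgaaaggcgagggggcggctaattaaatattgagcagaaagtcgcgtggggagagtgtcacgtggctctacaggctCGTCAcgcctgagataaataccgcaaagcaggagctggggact
Cort: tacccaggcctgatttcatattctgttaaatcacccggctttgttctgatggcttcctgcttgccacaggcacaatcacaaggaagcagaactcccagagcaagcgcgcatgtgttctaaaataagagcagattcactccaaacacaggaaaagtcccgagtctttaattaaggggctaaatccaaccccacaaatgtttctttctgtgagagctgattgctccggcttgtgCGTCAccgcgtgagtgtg
Nts: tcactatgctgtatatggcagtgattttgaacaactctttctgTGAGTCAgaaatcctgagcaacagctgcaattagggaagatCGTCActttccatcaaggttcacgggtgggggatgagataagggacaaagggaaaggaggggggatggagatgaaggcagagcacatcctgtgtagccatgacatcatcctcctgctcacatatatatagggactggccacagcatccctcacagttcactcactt

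The full CRE was found in the Cartpt window alone, 112 bases before the start, and was present in 1.77% of 27025 genes with promoter windows of the same length. A core site was found in 5 of the 8 genes: Cartpt (inside the full CRE), Adcyap1, Tac1 (2 copies), Cort and Nts, against 19.8% of all genes. The Nts window also held TGAGTCA, 207 bases before the start, and an AP-1 site was found in 5.16% of all genes. The EGR element (GCGTGGGCG or GCGGGGGCG) was found in 0 of the 8 genes and in 3.475% of all genes. The windows of Pdyn, Nmb and Tac2 held none of these letters, which says nothing about whether a factor binds there. In Adcyap1 the printed window ends upstream of the gene's first base in the count tables (93598762), so it belongs to a transcript that begins earlier, and both Adcyap1 windows share the same core site. A match is a description of letters and not a binding site.

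Levels can be compared between genes only per length of exon. As CPM per kilobase of exon in the 6 control mice, Penk was the most abundant at 17.6 ± 1.11 (SD, n = 6), followed by Cort at 14.7 ± 3.31. Cort encodes a short precursor whose transcript is only 498 bases long, so its 149 to 234 counts per control mouse translate into a high level per length. Tac1 (8.49 ± 0.868) and Nts (8.12 ± 0.598) could not be ordered, with Tac1 above Nts in 5 of 10 mice. Pdyn stood at 4.65 ± 0.335, and Tac2 (3.79 ± 0.519) and Adcyap1 (3.77 ± 0.598) again could not be ordered, with Tac2 above in 5 of 10 mice. Nmb had 3.08 ± 0.390, Cartpt 2.01 ± 0.528 and Crh 1.51 ± 0.352. The order of neighbours held in all 10 mice for Cort above Tac1, Nts above Pdyn, Pdyn above Tac2 and Nmb above Cartpt. It held in 8 mice for Penk above Cort and for Cartpt above Crh, and in 7 for Adcyap1 above Nmb. The 2 mice in which Cort exceeded Penk per length were control mice. Penk made up 22.1 to 29.2% of the summed level per length of the 10 RNAs in control mice and 28.8 to 39.4% in SAH mice, and Cort 17.8 to 26.6% and 12.2 to 20.8%.

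**Figure D2:**
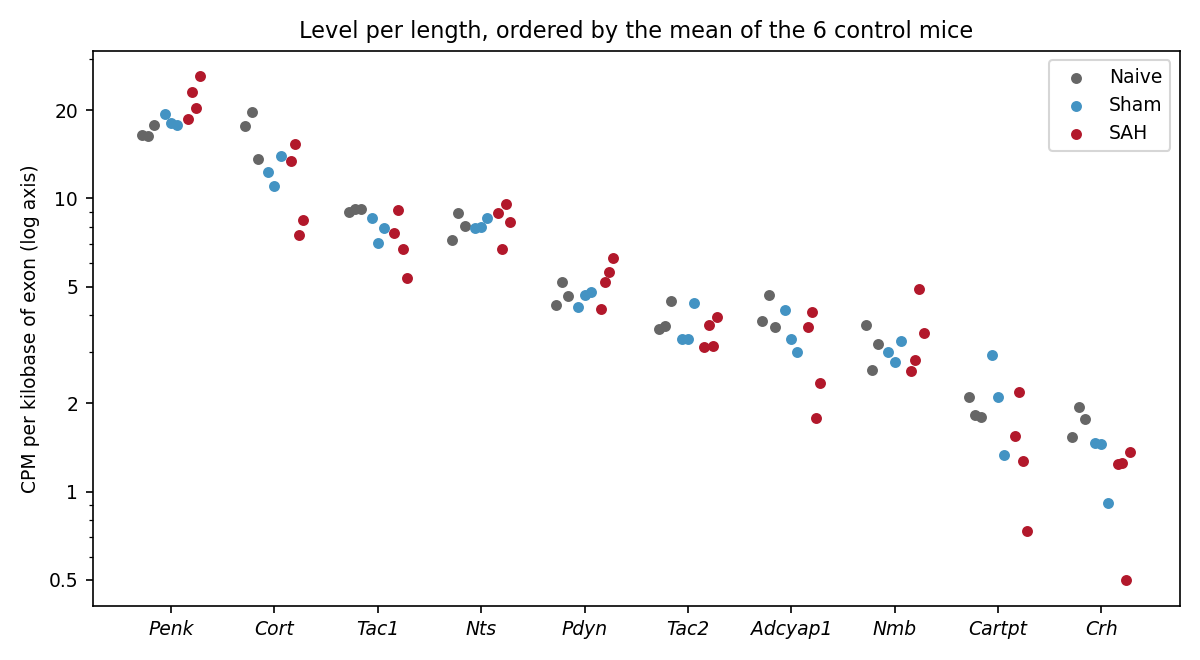
CPM per kilobase of exon (log axis) of each precursor in each mouse, ordered by the mean of the 6 control mice, with Naive in grey, Sham in blue and SAH in red. Levels fall from 17.6 for Penk to 1.51 for Crh in control, and the neighbours Tac1 and Nts, and Tac2 and Adcyap1, overlap.

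The opioid precursors are Penk, which yields the enkephalins that act on delta and mu opioid receptors, and Pdyn, which yields the dynorphins that act on the kappa receptor. Penk (mm9 chromosome 4, 4060683 to 4065592, minus strand, 2 exons) was measured at 26.4, 32.6, 28.7 and 36.9 CPM in SAH 1 to SAH 4. It stood at 27.3, 25.4 and 25.1 CPM in Sham 5 to Sham 7 and at 23.2, 23.1 and 25.04 CPM in Naive 8 to Naive 10. In SAH, 3 mice were above every control mouse, and SAH 1 was below Sham 5, so SAH and control overlapped. SAH mice averaged 31.2 ± 4.61 CPM (SD, n = 4), and control mice averaged 24.9 ± 1.56 CPM (SD, n = 6). This difference, 0.33 on the log2 scale, had a standard error of 0.084 and a 95% interval of 0.15 to 0.51, with an adjusted p of 0.0566 by edgeR's quasi-likelihood test with Benjamini-Hochberg adjustment over 14993 genes, under the threshold of 0.10 that the study used.

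The values of Penk in SAH and Naive mice did not overlap, and in the fit of the 3 groups the log2 fold change was 0.39 (95% interval 0.17 to 0.61, edgeR adjusted p = 0.0781). In a fit of SAH and Naive mice without the Sham mice it was 0.39 with an adjusted p of 0.155, not a call. Against Sham mice it was 0.27 (0.053 to 0.48), with an adjusted p of 0.386 and an unadjusted p of 0.0187 by the same edgeR test. Sham mice in turn all lay above Naive mice by a small margin, 0.12 (−0.11 to 0.36, edgeR adjusted p = 1.00), which did not pass. Penk thus stood highest in SAH, between in Sham and lowest in Naive by the means of 31.2, 25.9 and 23.8 CPM, and of these steps only the one from Naive to SAH passed the test. That call was lost in 8 of the 10 fits that left out 1 mouse.

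The call of Penk against control was lost in 4 of the 10 fits that left out 1 mouse. Without SAH 4, its highest mouse, the log2 fold change was 0.24 and the edgeR adjusted p 0.175. Without Naive 8, Naive 9 or Naive 10 in turn the fold change stayed at 0.31, 0.31 and 0.33 with edgeR adjusted p of 0.135, 0.122 and 0.112, no longer under 0.10. It was positive in all 21 alternatives, between 0.24 and 0.40. Without SAH 3, SAH 4 and Sham 7, the libraries richest in choroid plexus RNA, the fold change was 0.26 (adjusted p = 0.229), and with the choroid plexus level as a covariate it was 0.26 (adjusted p = 0.470).

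Pdyn (chromosome 2, 129512285 to 129525674, minus strand) was measured at 10.7, 13.2, 14.2 and 15.9 CPM in SAH 1 to SAH 4. The Sham mice had 10.8, 11.9 and 12.2 CPM and the Naive mice 11.0, 13.2 and 11.8 CPM. SAH 3 and SAH 4 were clearly above every control mouse, SAH 2 only just, and SAH 1 was below every one. The log2 fold change of 0.20 (95% interval −0.017 to 0.41) had an edgeR adjusted p of 0.339. Without SAH 1 it was 0.29 with an adjusted p of 0.0867, a call that this 1 library decides, and without SAH 3, SAH 4 and Sham 7 it was 0.039 with an adjusted p of 0.936.

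Summed markers of dentate granule cells, the main source of hippocampal dynorphin, stood at 468, 460, 559 and 563 CPM in SAH 1 to SAH 4, between 370 and 486 CPM in Sham mice and between 445 and 470 CPM in Naive mice. SAH 3 and SAH 4 were thus the highest in both this sum and Pdyn. Single markers differed from the sum, SAH 3 being the lowest of the 10 mice in Lct and Trpc6 and SAH 4 in Tdo2. In Lct and Trpc6 SAH 4 was the highest of all mice. Of the 8 granule cell markers, 1 rose past the threshold, C1ql2, a secreted synapse organiser (log2 fold change 0.34, edgeR adjusted p = 0.0727). Striatal neurons, which express Penk, Pdyn and Tac1 strongly, had 9 tested markers of which 0 were called, with summed levels of 237 to 302 CPM in SAH, 239 to 245 CPM in Sham and 224 to 239 CPM in Naive mice. The highest striatal sum was in SAH 3 and not in SAH 4, where Penk was highest. The part of either cell type in the opioid precursors was not tested.

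The tachykinin precursors are Tac1, which yields substance P and neurokinin A, and Tac2, which yields neurokinin B. Tac1 (chromosome 6, 7505071 to 7512973, plus strand) was measured at 7.88, 9.42, 6.97 and 5.52 CPM in SAH 1 to SAH 4. It stood at 8.87, 7.28 and 8.17 CPM in the Sham mice and at 9.29, 9.51 and 9.55 CPM in the Naive mice. SAH 3 and SAH 4 were below every control mouse, and the 3 Naive mice lay within a narrow band above all Sham mice. SAH against control gave a log2 fold change of −0.23 (95% interval −0.52 to 0.053, edgeR adjusted p = 0.401), which was −0.11 without SAH 4 and −0.37 without SAH 2. Against Naive mice it was −0.34 (−0.67 to −0.015) with an unadjusted p of 0.0419 and an adjusted p of 0.309 in the edgeR fit. Sham against Naive gave −0.22 (−0.57 to 0.12, adjusted p = 1.00) although the groups did not overlap. Without SAH 2 in the fit, Tac1 passed the threshold against Naive mice, a call again decided by 1 library.

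Tac2 (chromosome 10, 127161534 to 127168824, plus strand) was low, with 55 to 97 counts per mouse. The SAH mice had 2.76, 3.27, 2.78 and 3.48 CPM, the Sham mice 2.93, 2.94 and 3.90 CPM and the Naive mice 3.16, 3.24 and 3.95 CPM. All groups overlapped, and the log2 fold change of −0.12 had a 95% interval from −0.41 to 0.17. The coefficient of variation between SAH mice, 11.7%, was no larger than the 12.1% that counting alone gives at this depth.

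Adcyap1 and Crh encode peptides of class B receptors: PACAP, which acts on the receptor Adcyap1r1, and corticotropin-releasing hormone, the stress peptide that acts on Crhr1. Adcyap1 (chromosome 17, 93598762 to 93604829, plus strand) was measured at 7.59, 8.57, 3.74 and 4.92 CPM in SAH 1 to SAH 4. The Sham mice had 8.71, 6.91 and 6.28 CPM and the Naive mice 7.97, 9.77 and 7.64 CPM. The SAH mice split into a pair inside the control range and a pair, SAH 3 and SAH 4, below every control mouse. Their coefficient of variation was 36.3%, where counting alone gives 8.99%. The log2 fold change of −0.33 had a wide 95% interval, −0.75 to 0.093, and an edgeR adjusted p of 0.421. It was −0.16 without SAH 3 and −0.54 without SAH 2.

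Crh (chromosome 3, 19593401 to 19595396, minus strand) was another low precursor, with 13 to 55 counts per mouse. It stood at 1.64, 1.66, 0.657 and 1.80 CPM in SAH 1 to SAH 4, at 1.94, 1.91 and 1.21 CPM in Sham mice and at 2.03, 2.57 and 2.33 CPM in Naive mice. Every Naive mouse was above every Sham and every SAH mouse, and SAH 3 was the lowest of all. Crh had a log2 fold change of −0.45 (95% interval −0.99 to 0.10, edgeR adjusted p = 0.402) against control. Against Naive mice it was −0.66 (−1.27 to −0.042, unadjusted p = 0.0381, adjusted p = 0.295) and for Sham against Naive −0.45 (−1.09 to 0.20, adjusted p = 1.00), both by edgeR. Without SAH 3 the fold change against control was −0.22.

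Cort encodes cortistatin, a relative of somatostatin that binds the same receptors. Cort (chromosome 4, 148499300 to 148500850, minus strand) was measured at 6.67, 7.61, 3.74 and 4.20 CPM in SAH 1 to SAH 4. The Sham mice had 6.15, 5.48 and 6.96 CPM and the Naive mice 8.80, 9.82 and 6.79 CPM. SAH 3 and SAH 4 were below all other mice, while SAH 1 and SAH 2 lay among the controls. Cort had a log2 fold change of −0.39 (95% interval −0.83 to 0.062, edgeR adjusted p = 0.369) against control and −0.60 (−1.08 to −0.12, unadjusted p = 0.0189, adjusted p = 0.225) against Naive mice. Against Sham mice it was −0.15 (−0.64 to 0.34). The value against control was −0.24 without SAH 3 and −0.59 without SAH 2. Cort passed the threshold against Naive mice without SAH 2 in the fit, with an adjusted p of 0.0785, and in no other of the 10 fits that left out 1 mouse. Somatostatin itself, Sst, the marker of a large interneuron class, fell by 0.27 on the log2 scale (edgeR adjusted p = 0.0333), from 214 to 237 CPM in control mice to 161 to 208 CPM in SAH mice, with no overlap. Its lowest values were also those of SAH 3 and SAH 4 (179 and 161 CPM). It was called against Naive mice (edgeR adjusted p = 0.0621) but not against Sham mice (adjusted p = 0.258).

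Nts encodes neurotensin and neuromedin N, and Nmb encodes neuromedin B, a bombesin-like peptide. Nts (chromosome 10, 101944390 to 101953052, minus strand) was measured at 10.5, 7.94, 11.3 and 9.83 CPM in SAH 1 to SAH 4, at 9.33, 9.45 and 10.1 CPM in Sham mice and at 8.50, 10.5 and 9.51 CPM in Naive mice. The SAH mice held both the highest and the lowest value. Its log2 fold change was 0.043, with a 95% interval of −0.17 to 0.26 (edgeR adjusted p = 0.851). Nmb (chromosome 7, 88047113 to 88049948, minus strand) was measured at 1.79, 1.95, 3.39 and 2.40 CPM in SAH 1 to SAH 4. The Sham mice had 2.06, 1.91 and 2.25 CPM and the Naive mice 2.56, 1.80 and 2.21 CPM. SAH 3 was the highest of all mice and SAH 1 the lowest, and the log2 fold change was 0.15 (95% interval −0.25 to 0.54, edgeR adjusted p = 0.716). Both signs turned without SAH 3, to −0.022 for Nts and −0.058 for Nmb.

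Cartpt encodes the CART peptides. Cartpt (chromosome 13, 100668438 to 100670638, minus strand) was measured at 1.35, 1.91, 1.11 and 0.640 CPM in SAH 1 to SAH 4. The Sham mice had 2.56, 1.84 and 1.17 CPM and the Naive mice 1.84, 1.59 and 1.57 CPM. SAH 3 and SAH 4 were the lowest of the 10 mice and Sham 7 the third lowest. These values rest on 16 to 62 counts per mouse. The log2 fold change of −0.48 was the largest in size among the 10 precursors and had the widest interval, −1.07 to 0.11 (edgeR adjusted p = 0.402). It was −0.25 without SAH 4 and −0.79 without SAH 2.

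**Figure D3:**
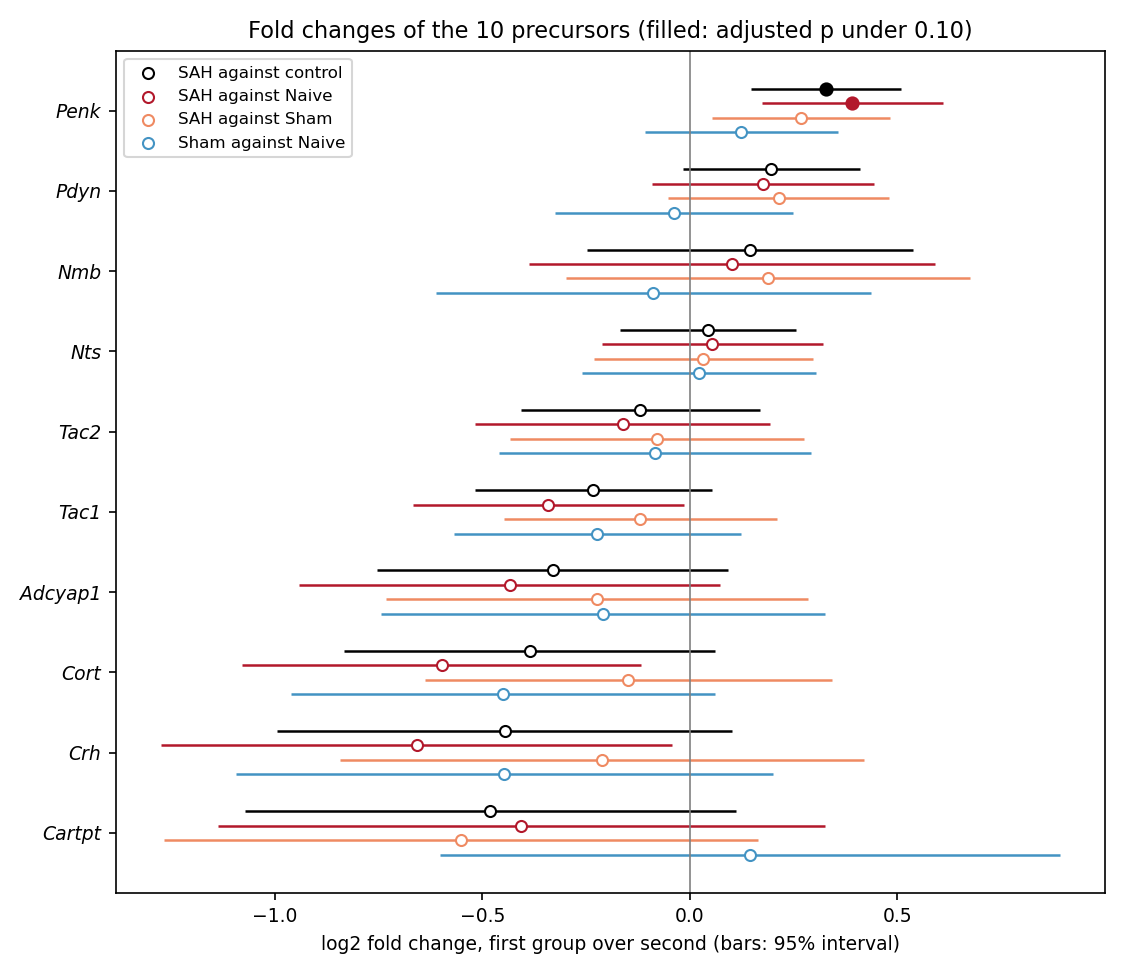
Log2 fold changes (x axis, first group over second) of the 10 precursors in 4 comparisons with 95% intervals from the edgeR fits; filled points have an adjusted p under 0.10. Penk is filled in SAH against control (0.33) and SAH against Naive (0.39), and all other points are open.

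Across the 10 precursors, 4 log2 fold changes were above 0 and 6 below in SAH against control, with a median of −0.18 where the median of all 14993 genes was −0.0024. In 0 of 10 did SAH and control not overlap, where 5.2% of all genes did not. In SAH against Sham 0 were called by edgeR (0.72% of all genes) and 0 by DESeq2 (1.91%). In that comparison 1, Penk, had an unadjusted p under 0.05 (9.69% of all genes), and in 0 of 10 did the groups not overlap (9.48%). In SAH against Naive 1 was called by edgeR (2.99% of all genes) and 1 by DESeq2 (4.56%), and 4 had an unadjusted p under 0.05 (14.8% of all genes): Penk, Tac1, Crh and Cort. In the same comparison 2 of 10 did not overlap, Penk and Crh, where 13.8% of all genes did not. In Sham against Naive 0 were called by edgeR (0.00661% of all genes) and 0 by DESeq2 (0.0102%), and 0 had an unadjusted p under 0.05 (2.02%). Even so 3 of 10, Penk, Tac1 and Crh, did not overlap, where 8.99% of all genes did not. SAH against Sham and SAH against Naive share the SAH mice, and both share mice with the main comparison, so their values are not independent of each other.

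Of the 10 precursors, 4 were lower in SAH 3 and SAH 4 than in SAH 1 and SAH 2 (Tac1, Adcyap1, Cort and Cartpt), and 2 were higher (Pdyn and Nmb). The share of all genes that split in this way was not computed, so these counts do not set the precursors apart from other genes. Summed over 10 choroid plexus markers (among them Ttr, the transthyretin secreted by this epithelium), the level was 110, 227, 1272 and 894 CPM in SAH 1 to SAH 4. It was 222, 61.9 and 859 CPM in Sham 5 to Sham 7 and between 49.0 and 72.8 CPM in Naive mice, and 0 of the 10 markers were called. SAH 3, SAH 4 and Sham 7 therefore held far more choroid plexus RNA than the others. Over all genes SAH 3 also stood apart, with a chi-square per degree of freedom of at least 15.3 against each of the other mice, where SAH 4 had up to 16.5 and the other 8 mice had 3.62 to 9.84 among themselves. The part of this in the results was not tested. In Sham 7 Penk, Adcyap1, Crh and Cartpt were the lowest of the Sham mice, and Tac1 lay between. Pdyn, Tac2, Cort, Nts and Nmb were the highest of the Sham mice there. With SAH 3, SAH 4 and Sham 7 left out, which leaves 2 SAH and 5 control mice, the log2 fold change was −0.0039 for Adcyap1, −0.031 for Cort, −0.025 for Tac1, −0.18 for Cartpt and −0.37 for Crh. With the choroid plexus level as a covariate and all mice kept, it was −0.075 for Adcyap1, −0.17 for Cort, −0.11 for Tac1, −0.26 for Cartpt and −0.079 for Crh. The part of the choroid plexus RNA in these values was not tested beyond these fits.

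**Figure D4:**
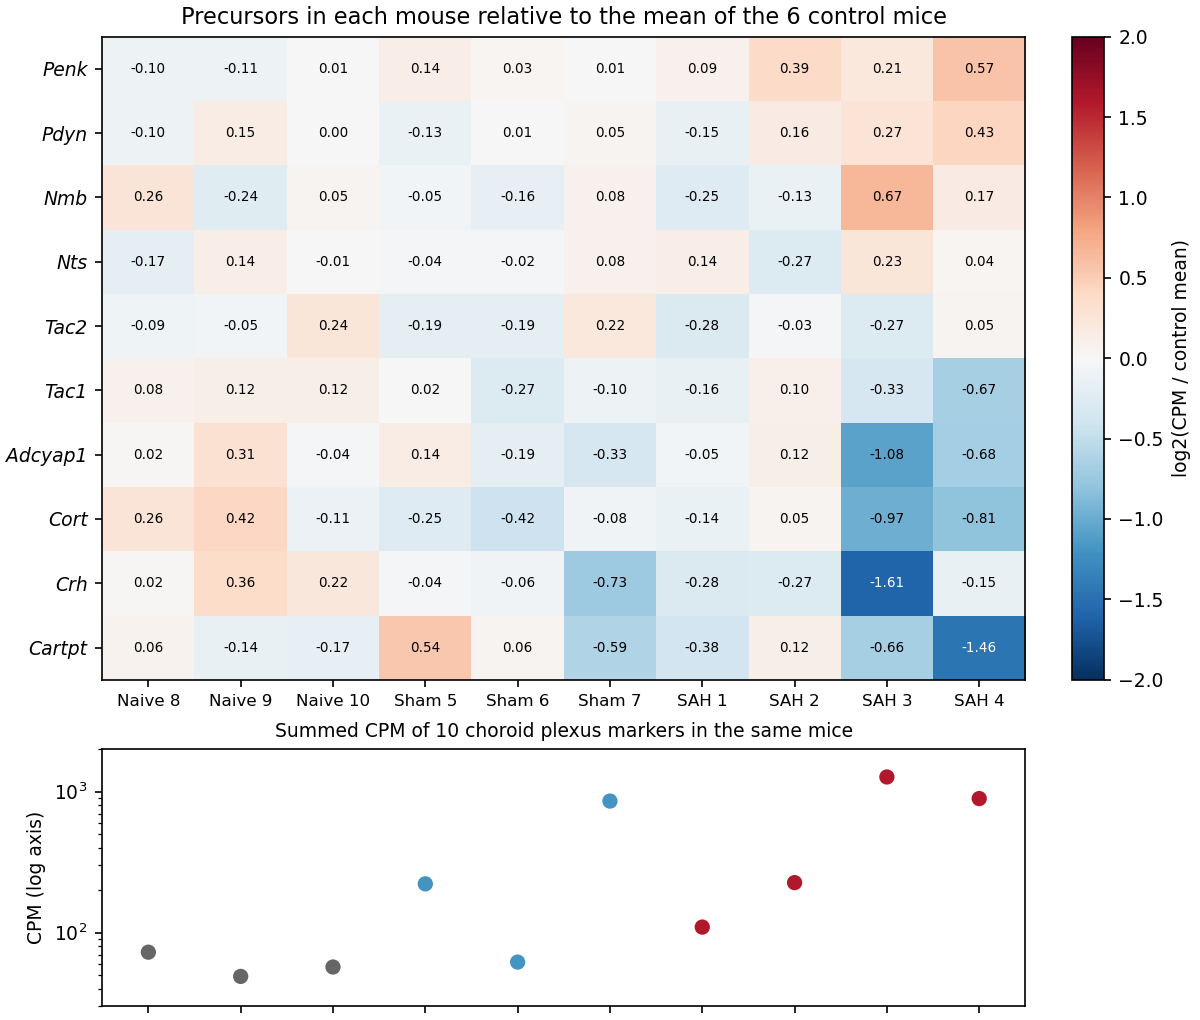
Above, log2 of CPM over the mean of the 6 control mice for each precursor (rows) in each mouse (columns), red for higher and blue for lower, with the value in each cell; below, the summed CPM of 10 choroid plexus markers in the same mice on a log axis. The 2 darkest blue cells of Tac1, Adcyap1, Cort and Cartpt are in SAH 3 and SAH 4, whose choroid plexus sums are 1272 and 894 CPM, while Crh is low in SAH 3 and Sham 7.

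Markers of other tissue that a dissection could carry were also examined. The hypothalamic list, whose neurons are rich in Crh, Cartpt and Tac2, stood at a sum of 1.15 to 4.50 CPM, with 7 of its 9 genes at 0 in at least 1 mouse. The habenular, thalamic, neocortical and dentate mossy cell lists had 0 called genes of 6, 8, 8 and 5 tested. Habenular markers summed to 179 to 189 CPM in SAH, 184 to 186 CPM in Sham and 181 to 196 CPM in Naive mice, and mossy cell markers to 253 to 272, 244 to 286 and 270 to 286 CPM. Thalamic markers summed to 303 to 328 CPM in SAH, 304 to 324 CPM in Sham and 334 to 377 CPM in Naive mice. Naive mice thus overlapped neither SAH nor Sham mice in this sum. Neocortical markers summed to 261 to 324, 266 to 323 and 291 to 326 CPM. Of the 8 inhibitory neuron markers 1 fell, Sst, and the sum was 848 to 927 CPM in SAH and 896 to 982 CPM in control mice. Of 10 fibroblast markers of meninges and vessels 7 rose, of 8 oligodendrocyte markers 8 fell, and 5 of 8 microglial and 2 of 7 astrocyte markers rose. Hippocampal markers, such as Prox1 of dentate granule cells, were present in every library, and 1 of the 10 on that list was called, C1ql2. The part of any of these cell types in the precursor values was not tested.

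The genes that receive, make or break down the peptides are read against the 4.68% of all genes called. Of 23 receptor and binding genes 21 were tested and 0 were called by edgeR. They had a median log2 fold change of −0.085, and those with the highest CPM, which is not scaled for length, were Sort1, Adcyap1r1 and Ntsr2. Sort1, the sorting receptor that also binds neurotensin, averaged 890 ± 50.0 CPM over the 4 SAH mice (SD) and 847 ± 29.6 CPM over the 6 controls (SD), which differ by 0.071 on the log2 scale (95% interval −0.016 to 0.16). Adcyap1r1, the PACAP receptor, stood at 244 and 239 CPM (0.031, −0.062 to 0.12), and Ntsr2, a neurotensin receptor, at 97.7 and 103 CPM (−0.082, −0.18 to 0.016). Tacr2 and Sstr5 had too few counts to be tested.

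Of 15 genes of precursor processing and vesicle release, 1 fell and 14 did not pass. Pcsk1n, the inhibitor proSAAS of the convertase Pcsk1, fell by 0.21 on the log2 scale (95% interval −0.34 to −0.077, edgeR adjusted p = 0.0968). It stood at 324, 328, 321 and 282 CPM in SAH mice, at 352, 417 and 370 CPM in Sham mice and at 336, 339 and 362 CPM in Naive mice, without overlap. In the fit of the 3 groups it was not called against Sham mice (edgeR adjusted p = 0.113) or Naive mice (0.346). Those with the highest CPM, the carboxypeptidase Cpe (2862 and 2883 CPM), the granin Chgb (819 and 746 CPM) and the convertase Pcsk2 (386 and 362 CPM), had log2 fold changes of −0.011, 0.14 and 0.093 with adjusted p of 0.894, 0.270 and 0.305 in the edgeR fit. Of 12 peptidases that degrade peptides 1 rose, Ace, the angiotensin-converting enzyme, by 0.93 (edgeR adjusted p = 0.0945), and in the fit of the 3 groups it was called against Naive mice (adjusted p = 0.0774) but not against Sham mice (0.504). Ace was measured at 16.6, 17.2, 44.4 and 27.8 CPM in SAH 1 to SAH 4, at 15.02, 11.9 and 22.8 CPM in Sham mice and at 10.9, 11.7 and 10.5 CPM in Naive mice, highest in SAH 3, SAH 4 and Sham 7, the mice with the most choroid plexus RNA. The peptidases with the highest CPM, Npepps, Lnpep and Thop1, had −0.028, 0.22 and −0.072 and did not pass (adjusted p = 0.795, 0.199 and 0.519).

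The other peptide genes of the tissue gave 1 more call. Among the 4 interneuron peptides Sst fell and Npy (−0.057), Vip (0.16) and Cck (−0.077) did not pass. Of 20 further precursors 6 had enough counts to be tested in SAH against control, Pnoc, Grp, Nppc, Pomc, Calca and Npff, and 0 were called. Grp, gastrin-releasing peptide, had the highest CPM of them, 22.1 and 24.4 CPM (log2 fold change −0.14, 95% interval −0.35 to 0.070), then Pnoc at 8.11 and 9.21 CPM (−0.18, −0.36 to 0.0057) and Nppc at 2.42 and 2.57 CPM (−0.090, −0.41 to 0.23).

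Of 14 tested CREB and AP-1 factors outside the activity list 0 were called by edgeR, with a median of −0.059, those with the highest CPM being Crtc1 (−0.018), Atf2 (−0.017) and Atf4 (−0.19). Of 19 activity genes, whose RNA follows recent firing, 14 fell, the AP-1 genes Fos (−1.57), Fosb (−0.86) and Junb (−0.70) included, and the median log2 fold change of the list was −0.71. Egr1, also among the 14, averaged 220.1 CPM in control and 115.5 CPM in SAH. In the fit of the 3 groups 8 of the 19 activity genes were called against Sham mice (0.72% of all genes). Against Naive mice 13 were called (2.99%), and 0 in Sham against Naive. Fos averaged 11.3 CPM in SAH, 27.5 CPM in Sham and 40.8 CPM in Naive mice. The median of the 10 precursors, −0.18, lay between that of the activity genes and that of all genes, and Penk had the opposite sign to the 14 activity genes that fell. These 2 lists were not compared by a test.

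**Figure D5:**
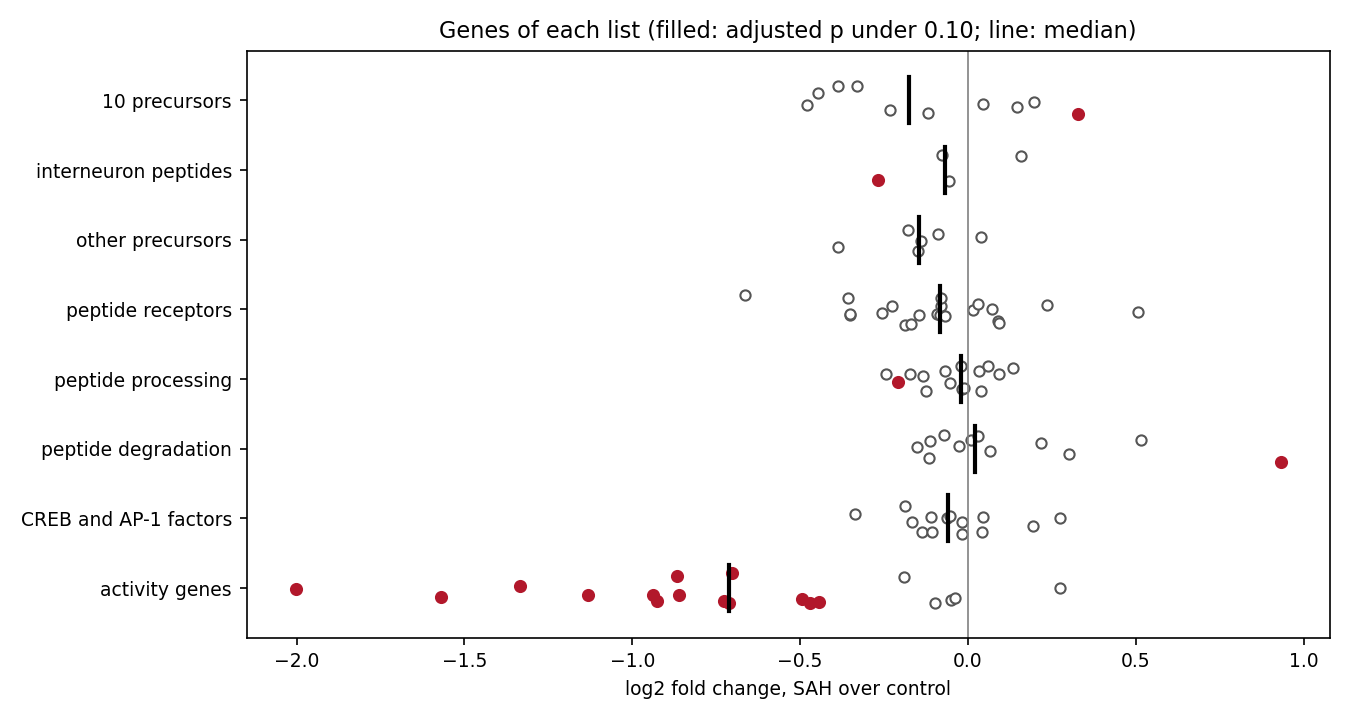
Log2 fold change (SAH over control, x axis) of each tested gene in each list, with the list's median as a black line and genes of adjusted p under 0.10 filled. The 10 precursors have 1 filled point, Penk at 0.33, and the activity genes have 14 filled points, all below 0.

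Genes whose pattern over the 10 libraries was most like that of each precursor were found among 13812 genes by Pearson's r of log2 CPM, as a description. The points share libraries and depth, and the highest of many values is high by selection. For Penk they were Serinc2, Bcam and Efcab5 (r = 0.94, 0.93 and 0.93), of which Serinc2 and Bcam, a laminin receptor, rose in SAH. For Pdyn they were Emcn, Helz2 and Flt1 (r = 0.94, 0.94 and 0.94), among them the endothelial genes Emcn and Flt1, and Helz2 and Flt1 rose. For Adcyap1 they were Hdac9, E130309D14Rik and Asb1 (r = 0.99, 0.98 and 0.97). For Cort they were Tnrc18, Bcl9l and 4930447M23Rik (r = 0.96, 0.96 and 0.95) and for Crh Usp37, Tle4 and 6330403K07Rik (r = 0.97, 0.96 and 0.96). Those of Tac1 were Rimklb, Kbtbd6 and Vkorc1l1 (r = 0.94, 0.93 and 0.92) and those of Cartpt were Ly6h, Ntng2 and Sh2d3c (r = 0.96, 0.96 and 0.96). Nmb was most like Sat1, Usp16 and Tmem136 (r = 0.96, 0.95 and 0.93). The values were lowest for Tac2 (Frmd4b, Tprkb and Bfsp2, r = 0.89, 0.88 and 0.85) and Nts (Dnajb9, Picalm and Dpcd, r = 0.91, 0.89 and 0.86). Among the precursors themselves, Adcyap1 and Cort were the most alike (r = 0.88 over 10 libraries), and Adcyap1 and Nmb the most opposed (r = −0.80).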

How the data were processed

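Hippocampal RNA of 10 mice was sequenced in strand-specific, ribosomal RNA-depleted libraries. The total of mice in the study's methods is 1 above the sum of its groups, and no further mouse was analysed here. The deposited files hold, for each gene name, a raw count of read pairs: the authors aligned the reads to mm9 with STAR and counted exons with featureCounts 1.6.2 against the UCSC annotation, keeping reads unique to 1 gene, so reads shared with other genes are missing. They held 19743388 to 27254655 counts per mouse, and intervals cover counting error and the spread between these mice. No library was a duplicate of another. Of 44 exons of the 10 precursors, 28 had both ends equal to the mm9 reference annotation, and 0 overlapped an exon of another gene.

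The tests were computed here with edgeR 4.0.16 in R 4.3.3 (TMM, filterByExpr with a minimum count of 10 and a total of 15, quasi-likelihood test, Benjamini-Hochberg adjustment over all genes tested, threshold 0.10). All 10 precursors passed the filter. The SAH against control fit tested 14993 genes and the fit of 3 groups 15134. The standard error was the log2 fold change divided by the square root of F. CPM used TMM library sizes. The script was tested on simulated data. DESeq2 1.42.0 and the other alternatives are given in the closing section. Python 3.11.15 with pandas 2.3.3, scipy 1.17.1 and matplotlib 3.10.9 was used.

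The members and gene lists, which were written from general knowledge, were chosen with earlier results of these data known. Named genes are all 10 precursors, the called and the 3 genes of highest CPM in each list, with the activity genes given by count and examples, and the 3 most similar genes per precursor (mean CPM of at least 1, log2 CPM with prior count 2). Genes named outside this rule are untested or marker genes.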

Additional observations from a re-analysis of the deposited data

Results flagged for a closer look

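In 52 groups of 26 genes the highest or the lowest mouse was compared with the others by Dixon's ratio, which chance passes in about 1 of 20 groups, and 4 values stood apart. Crh in SAH 3 was 0.657 CPM (13 counts), where the other SAH mice had 1.64 to 1.80 CPM (34 to 45 counts). Pmch, the melanin-concentrating hormone precursor of the lateral hypothalamus, stood at 2.47 CPM (51 counts) in SAH 1, where the other SAH mice had 0 to 0.120 CPM (0 to 3 counts). Prok2, a prokineticin precursor, was 0.657 CPM (13 counts) in SAH 3, where the other SAH mice had 0.240 to 0.257 CPM (5 to 7 counts). Calca, the precursor of calcitonin gene-related peptide, was 0.515 CPM (14 counts) in Sham 6, where the other control mice had 1.09 to 1.36 CPM (25 to 33 counts).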

How the results depend on the processing

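In SAH against control 701 genes and 1 precursor were called. At an adjusted p under 0.05 these were 369 and 0, with Naive mice alone as control 282 and 0, with Sham mice alone 12 and 0, with the choroid plexus level as a covariate 175 and 0, and without SAH 3, SAH 4 and Sham 7 330 and 0. The last pair was chosen after seeing the data. With each mouse left out in turn, 308 to 1093 genes and 0 to 2 precursors were called. In SAH against Naive 0 to 2 precursors were called, and in SAH against Sham and Sham against Naive 0 in every fit. DESeq2 called 1035 genes and Penk. Penk missed the threshold in 9 of 21 alternatives. With each mouse left out in turn Nts lay between −0.022 and 0.14 and Nmb between −0.058 and 0.25. The signs of Nts and Nmb turned with the covariate (−0.0063 and −0.060), without SAH 3, SAH 4 and Sham 7 (−0.040 and −0.17) and without SAH 3 alone, and the other 8 kept their sign in all 21 alternatives. The cause was not tested. No paired analysis was possible because the mice of different groups share no number. Crh, Cartpt, Nmb and Tac2 rest on under 100 counts per mouse, which limits their precision.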
